A study of Drosophila melanogaster with 2 samples.

Results

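The peaks described here are those at chinmo, a gene on the left arm of the second chromosome (2L) of Drosophila melanogaster, in a map of where the zinc-finger protein Sob binds chromatin. A peak was taken when its summit, the position of highest signal, lay in the chinmo gene body or within 30 kb of it. This rule found 20 of the 7002 peaks in the list that the authors made from both replicates, called the main list below. The gene was chosen by its number of summits in that list, so this number and the density of peaks are given as a description and were not tested.

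The binding map was made by chromatin immunoprecipitation with sequencing (ChIP-seq) from whole embryos aged 0 to 24 h, in 1 group with 2 biological replicates. The flies carried sob fused to eGFP, a green fluorescent protein, and chromatin sheared to 200 to 800 bp was precipitated through that tag. The labels name a control library and give an insertion targeting sob; the promoter that drives the fusion and any flies without the tag are not described in the labels. The collection pools all embryonic stages and tissues, so strong binding in few cells and weak binding in many cells cannot be told apart. No read numbers come with the lists, and the depth of each replicate is unknown. Peak signal is the authors' own value over their control, with no stated scale. It is used here to rank and describe peaks within a list, and where values of the 2 replicates stand side by side, their scales may differ. On the 6 main chromosome arms, 7001 main-list peaks could be placed, of which 1301 were on 2L.

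Chinmo (Chronologically inappropriate morphogenesis) is a transcription factor with a BTB domain, through which such proteins pair, and zinc fingers that bind DNA. In neural stem cells and in the neurons of the mushroom body, a high early and low late amount of Chinmo sets which neurons are made in what order, and in the testis the gene acts with JAK/STAT signalling to maintain somatic stem cells. Sob belongs to the odd-skipped family of zinc-finger proteins with Odd, Drm and Bowl.

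The gene (FBgn0086758) lies on the plus strand at chr2L:1651258-1704682 in the dm6 build and is 53425 bp long. The annotation gives it 6 transcripts, of which RH, RG, RE and RD start at the gene's first base and RF and RA start 16589 bp further in. Distances below are counted from the first of these start sites. With 30 kb on either side, the window ran from 1621258 to 1734682, a length of 113425 bp. It also held start sites of 10 other protein-coding genes, all to the right of chinmo, and of 3 non-coding genes.

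The strongest binding at chinmo lay in the DNA before the gene, and 4 summits from there are shown because they are the 4 of highest signal that lay between genes. Each line gives 101 bases of the plus strand, 5′ to 3′, from the RefSeq copy of genome release 6, which has the coordinates of dm6, with the 11 bases centred on the summit in capitals.
Peak 18425 bp upstream, chr2L:1632783-1632883: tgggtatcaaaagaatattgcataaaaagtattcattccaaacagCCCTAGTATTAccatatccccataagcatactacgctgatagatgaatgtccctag
Peak 12484 bp upstream, chr2L:1638724-1638824: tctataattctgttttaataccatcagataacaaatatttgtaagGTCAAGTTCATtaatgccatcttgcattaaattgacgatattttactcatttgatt
Peak 7805 bp upstream, chr2L:1643403-1643503: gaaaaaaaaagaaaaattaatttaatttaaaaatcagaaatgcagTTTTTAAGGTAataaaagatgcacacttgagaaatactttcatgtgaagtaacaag
Peak 1554 bp upstream, chr2L:1649654-1649754: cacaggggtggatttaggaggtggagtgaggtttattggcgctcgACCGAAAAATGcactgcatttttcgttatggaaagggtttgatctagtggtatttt

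These stretches differed in base composition. A and T made up 77.2% of the bases at the peak 7805 bp upstream and 74.3% at the peak 12484 bp upstream. The shares were 63.4% at the peak 18425 bp upstream and 55.4% at the peak 1554 bp upstream, which lies nearest to the gene. The stretch 7805 bp upstream also held an unbroken run of 23 A or T bases.

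**Figure D1:**
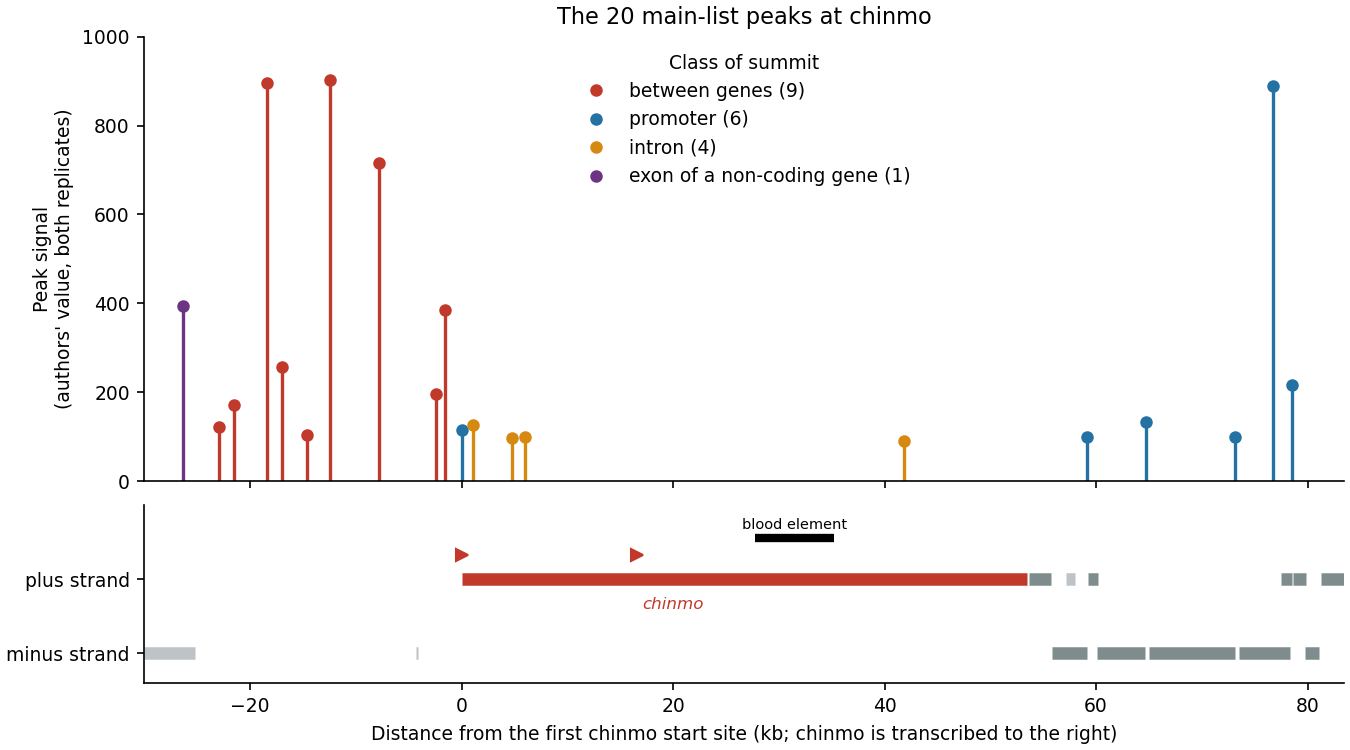
Signal of the 20 main-list peaks (vertical axis, authors' value for both replicates, no unit) against distance from the first chinmo start site in kb, with the class of each summit in colour and the genes of the window on both strands below. Protein-coding neighbours are dark grey, non-coding genes light grey, and the triangles mark the 2 chinmo start sites. The 3 tallest peaks before the gene have signals of 715.0 to 901.7, and the gene body between 6011 and 41872 bp holds no main-list summit.

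The upstream DNA held 10 of the 20 summits in 30 kb, or 3.33 per 10 kb, and their median signal was 320.3 with a range of 103.5 to 901.7. The peak 12484 bp upstream (chr2L:1638552-1638979) had a signal of 901.7, which put it at place 122 in the main list. The peak 18425 bp upstream (chr2L:1632690-1633002) followed at place 123 with 895.5. Both are thus among the strongest Sob peaks in the genome, and so is the peak 7805 bp upstream (chr2L:1643248-1643586), with a signal of 715.0 at place 193. In each replicate's own ranked list, the peak 12484 bp upstream had a signal of 551.2 in replicate 1 and 343.5 in replicate 2. The peak 18425 bp upstream had 459.7 in replicate 1 and 439.0 in replicate 2. At 7805 bp upstream the signals were 379.4 in replicate 1 and 326.8 in replicate 2. All 3 peaks were in the thresholded list of each replicate, and within those ranked lists they stood between places 104 and 216.

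The other 7 upstream peaks were lower and varied more. The peak 26307 bp upstream (chr2L:1624856-1625075) had a signal of 394.2, with 221.3 in replicate 1 and 177.7 in replicate 2, and was the only upstream summit inside an annotated transcript, an exon of lncRNA:CR44603, 1070 bp after that gene's start. The peak nearest the gene among the printed ones, 1554 bp upstream (chr2L:1649599-1649876), had 384.6, with 249.5 in replicate 1 and 136.7 in replicate 2. Next to the tall peak at 18425 bp stood one 16988 bp upstream with 256.1, and the signals there were 131.9 in replicate 1 and 129.6 in replicate 2. The remaining 4, at 22922, 21552, 14574 and 2452 bp upstream, had main-list signals of 103.5 to 195.8, all below the highest quartile of the main list, which began at 214.4. Each of these 4 was lower in replicate 1 than in replicate 2, for example 69.7 against 125.7 at the peak 2452 bp upstream.

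Many of these peaks lay between genes. A summit was called a promoter summit when it lay within 1000 bp of a start site of any gene, and intergenic when it lay in no gene and no promoter. Of the 20 summits at chinmo, 9 were intergenic, against 9.37% of the 1281 other 2L summits. Promoter summits numbered 6 at chinmo, against 65.2% on the rest of the arm, and intron summits 4, against 23.3%. All 9 intergenic summits lay upstream of the gene. Their median signal was 256.1, and the median of the 120 other intergenic summits of 2L was 135.0. The highest quartile of the main list held 5 of the 9 intergenic peaks at chinmo and 20 of those 120, or 16.7%.

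Peaks outside promoters and genes were uncommon in the whole list, at 616 of 7001 (8.8%). Among the 250 main-list peaks of highest signal, a number chosen after the values were seen, 12 were intergenic (4.8%). The 3 tall peaks before chinmo were the only ones of these 12 on 2L, and they took places 4, 5 and 10 among all 616 intergenic peaks. The remaining 9 were spread over 3R, 3L, 2R and chromosome 4. The highest of them lay nearest to the start sites of CG13323, with a signal of 1787.7, and CycB, with 1098.3.

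**Figure D2:**
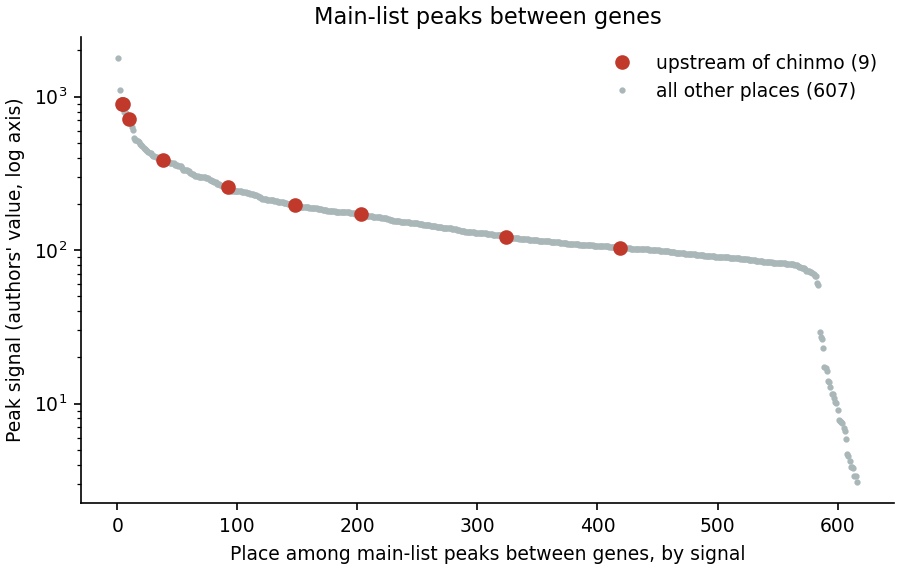
Signal of all 616 main-list peaks between genes (vertical log axis, authors' value) by their place from highest to lowest (horizontal axis), with the 9 upstream of chinmo in red and all others in grey. The red points include places 4, 5 and 10, and the other red points run down to a signal of 103.5.

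The upstream intergenic signal at chinmo was compared with the same 30 kb before the first start site of every protein-coding gene, a sum chosen after the values were seen. No protein-coding gene lies in these 30 kb at chinmo, so most of this DNA could be classed as intergenic. The length of intergenic DNA differs between genes, and the counts and sums were not adjusted for it. The 9 summits at chinmo were exceeded by 1 of 13945 genes, CG7560 on 3L, which had 10, and the median gene had 0. Their summed signal of 3746.4 was the highest of all these genes. The next were RFeSP with 3326.9 and Rab3GAP1 with 2611.9, followed by CG7560 with 1940.5. The first 2 of these share the interval with chinmo: RFeSP, which encodes the Rieske iron-sulfur protein of the mitochondrial respiratory chain, starts 37098 bp upstream of chinmo and is transcribed away from it, and Rab3GAP1 lies to its left on the same strand. The peaks from 18425 bp upstream to the gene had chinmo as the nearest protein-coding start site, and the 3 farther out, at 26307, 22922 and 21552 bp, had RFeSP. This assignment rests on distance alone, and which gene any of these peaks acts on was not measured.

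At the chinmo start site itself the signal was modest. The summit lay 22 bp inside the gene (chr2L:1651090-1651469) with a signal of 115.5 at place 4251, below the main-list median of 133.4. It measured 33.1 in replicate 1 and 75.7 in replicate 2, and it was in neither replicate's own thresholded list. This peak had the weakest reproducibility of the 20: its score, which restates the irreproducible discovery rate (IDR, the estimated share of peaks that do not repeat between replicates), was 831, and the lists stop at 830, an IDR of 0.01. The 100 bases before the gene are shown because this peak covers them, with CTCTC, the reverse complement of the GAGA-factor motif GAGAG, in capitals.
Bases before the first chinmo start, chr2L:1651158-1651257: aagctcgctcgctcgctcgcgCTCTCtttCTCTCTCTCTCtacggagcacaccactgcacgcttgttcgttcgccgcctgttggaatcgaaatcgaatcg

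The stretch held 5 overlapping or separate matches of this motif. At least 1 match was present in the same stretch before 13.6% of the 2657 protein-coding genes of 2L. The 5 matches before chinmo lay more than 50 bp from the summit of the start-site peak. Within 50 bp of that summit, none of the 9 motifs searched below was found. The GAGA factor, encoded by Trl, is a BTB protein that opens chromatin at promoters, and its binding was not measured here.

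Within the gene body, 5 summits in 53425 bp came to 0.94 per 10 kb, and all had low signals, from 91.3 to 127.2 with a median of 99.2. Besides the start site, these were 4 intron summits, and 3 of them followed the start closely, at 1050, 4798 and 6011 bp. The intron summit at 1050 bp was the highest in the body, with a main-list signal of 127.2, 36.9 in replicate 1 and 81.9 in replicate 2. The last stood alone at 41872 bp (chr2L:1692940-1693319) and was the weakest of all 20, with 91.3, 43.5 in replicate 1 and 51.4 in replicate 2. No body peak was in replicate 1's own thresholded list, and 2 were in that of replicate 2, those at 1050 and 6011 bp.

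The summits before and just inside the gene lay close together. From 26307 bp upstream to 6011 bp downstream, 14 summits spanned 32319 bp, or 4.33 per 10 kb, and the nearest neighbours among them were 898 bp apart. The left end is set by the window, since the next summit outside lay 3936 bp further left, closer than some neighbours inside, which were up to 5353 bp apart. The right end was set at the longest gap between summits. Because the span was drawn around its own summits, its 4.33 per 10 kb is not comparable with the density of the arm. To the right came 35861 bp without a main-list summit. The second chinmo start site, used by transcripts RF and RA, lies in that gap, 10578 bp from the nearest main-list summit. Within 1000 bp of it the ranked lists, which hold all peaks before the IDR threshold, had 3 summits with a highest signal of 40.1, and the highest there was 21.1 in replicate 1 and 26.7 in replicate 2. The gap held 34 ranked summits, the highest at 65.8. It also contains a copy of the transposable element blood, 7408 bp long, in which there was no ranked summit; the labels do not say how reads from repeated sequence were treated.

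To the right of chinmo, all 5 summits in the 30 kb beyond the gene lay in promoters of closely packed neighbours, and 1 of them was as tall as the upstream peaks. It lay 247 bp upstream of a start site of Eno (FBgn0000579), which encodes the glycolytic enzyme enolase, and within 1000 bp of the start of Rrp40, which encodes a subunit of the RNA exosome. This peak (chr2L:1727769-1728095) had a signal of 889.8 at place 126, with 467.4 in replicate 1 and 420.4 in replicate 2. A second peak, 109 bp upstream of another Eno start and also in the promoter of CG31937, had 217.3, with 116.0 in replicate 1 and 106.4 in replicate 2. The shared promoter of CG17660 and mRpL48, a mitochondrial ribosomal protein gene, had 100.3. At frtz, whose product Fritz acts in planar cell polarity, the signal was 132.4, and at Rim2, which encodes a mitochondrial nucleotide carrier, it was 99.3. These 3 promoters stood at 27.3 to 52.3 in replicate 1 and at 68.1 to 78.1 in replicate 2. No promoter summit was found at cpb, which encodes the actin capping protein beta and starts just after chinmo, at CG17652 or CG17646, or at the non-coding genes asRNA:CR44976, lncRNA:CR44603 and lncRNA:CR45695. The peaks to the right were thus assigned to the chinmo window by distance, although each was at another gene's promoter.

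The window's limits fell between peaks on both sides. The last main-list summit outside on the left was 243 bp beyond the limit with a signal of 186.7, and the first outside on the right was 2531 bp beyond with 292.9. With respect to the IDR threshold, the lowest −log10 IDR of a peak at chinmo was 2.0, at the start site, and the highest among ranked peaks left out was 1.76, at a summit 4362 bp upstream with a signal of 69.3. By signal, the weakest peak inside was 91.3 and the strongest ranked peak left out was 78.7.

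At chinmo, which peaks repeated in both replicates' own lists went with signal, which comes in part from the same reads. Of the 20 peaks, 10 overlapped a peak of replicate 1's own thresholded list, against 60.1% of the other 2L peaks, and 15 overlapped replicate 2's, against 63.9%. Both own lists held 10 of the 20, against 43.3%, and neither held 5, against 19.3%. No peak was in replicate 1's list alone, and 5 were in replicate 2's alone. Of the 1281 other 2L peaks, 770 overlapped replicate 1's list, 819 replicate 2's and 555 both, so each list alone held some of them. All 20 were present in both replicates' ranked lists, as were 1190 of the 1281 other 2L peaks. The conservative list held 14, against 68.7% of the other 2L peaks. The 10 peaks in both own lists were the 10 above the main-list median signal of 133.4, and none of the 10 below it was in both. By position, both own lists held 8 of the 10 upstream peaks, 2 of the 5 downstream peaks, the pair at Eno, and 0 of the 5 in the gene body. The shares of the other 2L peaks are not split by signal or position, so these splits have no background.

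By signal, the chinmo peaks ran from place 122 down to place 5736 of the main list. The highest quartile of the main list held 8 of the 20, against 25.1% of the other 2L peaks, and 10 lay below the main-list median, against 48.1%. The median signal was 152.1 at chinmo and 137.2 over the other 2L peaks. A width of 380 bp, the most frequent in the list, was found at 13 of the 20 and at 79.3% of the others.

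The ratio of the replicates' values varied with signal. Replicate 1 had a higher value than replicate 2 at all 8 peaks of the highest quartile, with ratios of 1.02 to 1.82 and a median of 1.14. It was lower at all 12 others, and the 10 below the main-list median had ratios of 0.37 to 0.85 with a median of 0.50. The other 2L peaks went the same way with more exceptions: replicate 1 was higher at 69.3% of the 316 in the highest quartile with a value in both lists, where the median ratio was 1.13, and at 37.7% of the 554 below the median, where it was 0.84. Because the scales of the lists are unknown, a ratio of 1 does not mark equal binding; depth is unknown too, and its part in these ratios was not tested. Between replicates, summits of these 8 chinmo peaks were displaced by 2 to 32 bp with a median of 12, and those of the other 12 by 1 to 140 bp with a median of 55.5. For the other 2L peaks the median displacement was 15 bp in the highest quartile and 37 bp below it.

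**Figure D3:**
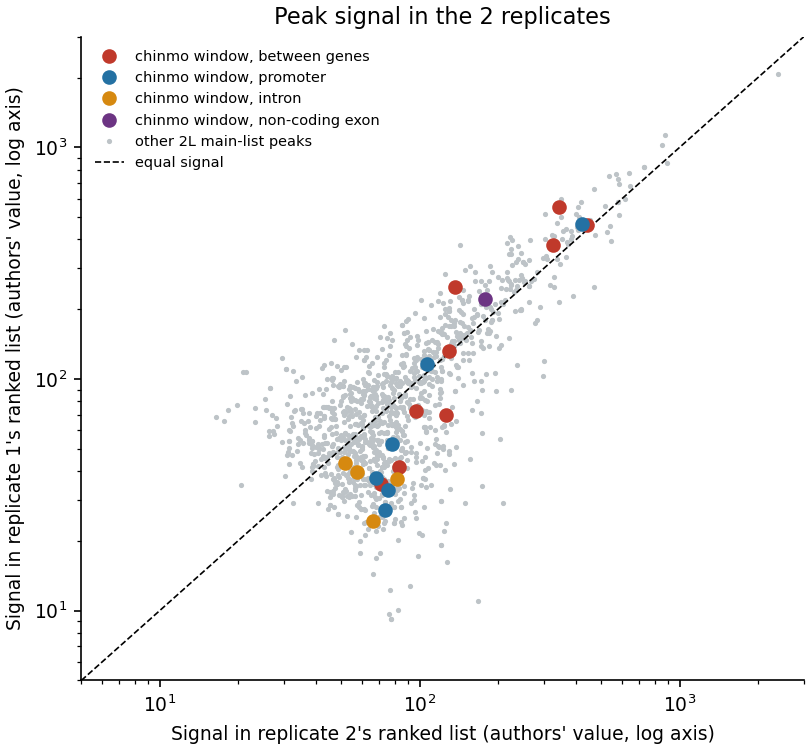
Signal of each main-list peak in replicate 1's ranked list (vertical log axis, authors' value) against that in replicate 2's (horizontal log axis), with the 20 chinmo peaks coloured by class and the other 2L peaks in grey. The 8 chinmo peaks of the highest quartile lie above the dashed line of equal values, at ratios of 1.02 to 1.82, and the 12 weaker ones lie below it.

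Each replicate's own list, made from reads that also went into the main list, had summits in the window too. Replicate 1's own list had 12 of its 821 2L peaks there, or 1.06 per 10 kb, which was 3.03 times the arm's density in that list. Replicate 2's had 16 of 913, or 1.41 per 10 kb and 3.63 times. In replicate 1, 11 of the 12 overlapped a main-list peak (91.7%), and these met 10 of the 20 main-list peaks (50%). In replicate 2, 15 of 16 did (93.8%), meeting 15 of 20 (75%). The share of all own-list 2L peaks that overlap the main list was not counted, so the 91.7% and 93.8% have no background. The peak missing from the main list lay 1964 bp upstream in replicate 1, with a signal of 37.7, and 997 bp upstream in replicate 2, with 38.8.

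In the main list, the window had 1.76 summits per 10 kb, and arm 2L had 0.553, a ratio of 3.19. At the arm's density a window of this length would hold 6.28. The same 20 summits, which chose the gene, were 13.2% of the 152 ranked summits in the window; on the rest of the arm 6.6% of 19411 ranked peaks were in the main list. The share was 25% upstream, 7.4% in the gene body and 11.4% downstream.

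How dense chinmo was among genes depended on the measure. Windows built in the same way around all 13945 protein-coding genes overlap and share peaks, and 90.7% of them held at least 1 summit. By number of summits chinmo took place 6, with 20 against 5 for the median gene, and shared that place with pum and with CG5953, which is on 2L and was denser at 2.36 per 10 kb. The 5 genes with more, named after their values were seen, were kirre with 26, which encodes a cell adhesion protein of muscle founder cells, bun with 23, which encodes a TSC22-domain protein, atos and mtgo with 22 each, and CG32264 with 21. By density, however, chinmo took place 661, at the percentile 95.3, with 1.76 against a median of 0.66 per 10 kb, and 150 of the 2657 genes on 2L were denser. In the replicates' own lists it took place 1171 in replicate 1 and 441 in replicate 2. The genes ahead of it had shorter windows: of the 460 genes with windows of at least 100000 bp, a limit chosen after the values were seen, 0 were denser than chinmo. Summits in the gene body alone put it at place 106 with 5, and 17.5% of genes had any. This place was not adjusted for gene length. The chinmo body is 53425 bp long, and its density was 1.69 times that of the arm.

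The densest genes, counting only the densest of genes whose windows overlap, were CG3402 with 3.1 per 10 kb, CG5177 with 3.0 and CG11726 with 2.79. CG42526 and Rpt5, a proteasome subunit gene, had 2.75 each, Egm 2.74, link 2.61, Arc42 2.6, Mtpbeta, for the mitochondrial trifunctional protein, 2.58, and stum 2.57. Next to chinmo in this order stood tws, Rap2l and Srr above it and Fbw5, xmas and CG34220 below it, with 1.76 or 1.77 per 10 kb each. Likeness here is in summit density alone.

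**Figure D4:**
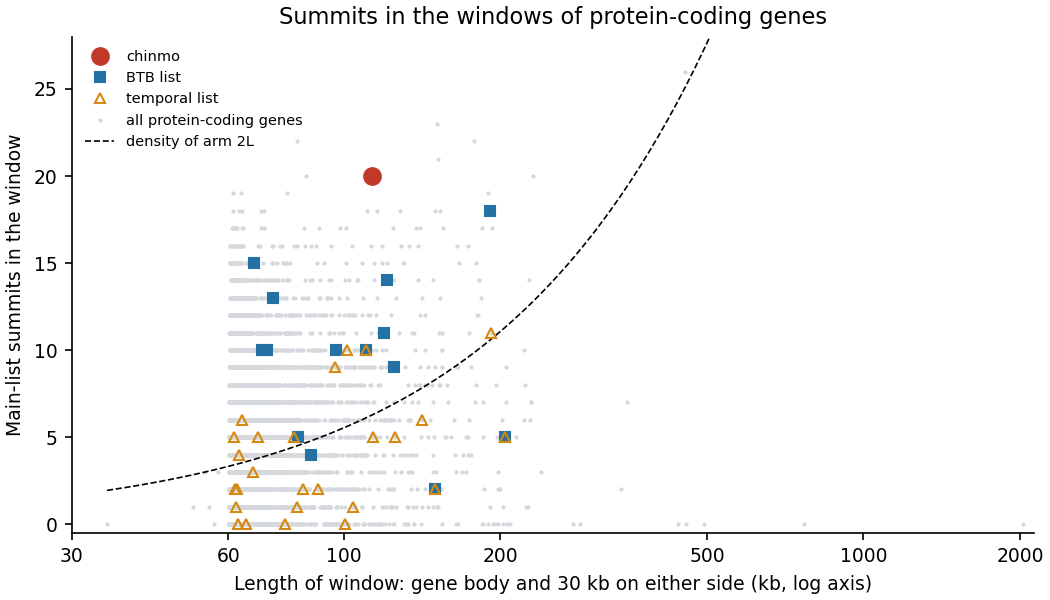
Number of main-list summits (vertical axis) against the length of the window in kb (horizontal log axis) for chinmo, the BTB list, the temporal list and all 13945 protein-coding genes. The dashed line is the number expected at the density of arm 2L. The red point, with 20 summits in a window of 113425 bp, lies above every member of both lists.

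Other genes that set temporal identity were mostly below the median density. Of 26 such genes in a list that leaves chinmo out, 9 had a summit in the gene body, against 17.5% of all genes. A summit in the window was found at 22, against 90.7%, and neither comparison was matched for gene length. The median of the 26 was 0.36 per 10 kb, against 0.66 over all genes, and 6 of the 26 lay above that. Denser than chinmo were 0 of the 26 and 4.73% of all genes, so this count says little of the list. The highest were grh, the gene of the late factor Grainyhead, with 0.98, cas, which encodes the zinc-finger factor Castor, with 0.94, and Imp, which encodes an RNA-binding protein of early neural stem cells, with 0.93. They were followed by ab, which encodes a BTB zinc-finger protein, with 0.91 and slp1, a forkhead gene of the optic lobe series, with 0.81. No window summit was found at Kr and nub, which encode factors of the embryonic series, at opa, or at lin-28, which encodes an RNA-binding protein.

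A list of genes that encode other BTB proteins, called the BTB list, had higher densities than the temporal list. Some members bind DNA through zinc fingers, as Chinmo does, and psq, rib, bab1, bab2 and BtbVII through a helix-turn-helix domain of the Pipsqueak type. All 14 in the list had a summit in the gene body, against 17.5% of all genes. This comparison was not matched for gene length, and a long body has more room for a summit. For example, br and mamo had 1 body summit each, in windows of 149738 and 204412 bp. The 14 became 12 in the conservative list, 12 without replicate 1 and 11 without replicate 2. The median of the list was 0.93 per 10 kb, with 10 members above the median of all genes. Of the 14, 2 were denser than chinmo, against 4.73% of all genes: ken, which encodes a repressor that acts on part of the JAK/STAT target genes, with 2.23, and Trl, the gene of the GAGA factor, with 1.78. BtbVII followed with 1.43, rib, which acts in tracheal and salivary gland development, with 1.4, and lola, an axon guidance regulator, with 1.15. The lowest was br, which encodes the Broad factors of metamorphosis, with 0.13. The lists share br, ab and mamo, so these 3 genes count in both.

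At the width searched here, known motifs were found at a minority of the summits, at chinmo as on the rest of the arm. Within 50 bp of the summit on either strand, 9 motifs were searched, and 6 of the 20 summits held at least 1 of them, against 24.0% of the other 2L summits. GAGAG was found at 3 summits, those 14574 bp upstream, 1050 bp inside the gene and at the promoter that Eno shares with CG31937, against 12.3%. The E-box CAGCTG was found at 2, against 5.7%, and the E-box CACGTG at 1, the frtz promoter, against 1.17%. No chinmo summit held CAGTAGC, the core of the odd-skipped family motif, which 0.625% of the others held, or its longer form ACAGTAGC (0.156%), and these 2 forms overlap. None held TATCGATA of DREF and BEAF-32 (1.56%), CAGGTAG of Zelda (0.156%), TGACTCA of AP-1 (1.33%) or TTCNNNGAA of Stat92E (3.43%). The 5 intergenic peaks of the highest quartile, the 4 printed ones and that at 16988 bp, held none of the 9. With shares this low on the arm, 20 summits would hold few matches of the longer motifs in any case.

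The DNA under the summits was rich in A and T, as under strong peaks elsewhere on the arm. G and C made up a median of 32.7% of the 101 bases around the chinmo summits, with a range of 22.8% to 52.5%, and 38.6% around the other 2L summits. These 2 sets were not matched for position, and the 120 other intergenic summits of 2L had a median of 34.2%. At the 5 intergenic chinmo peaks of the highest quartile the median was 29.7%, and at the 322 other 2L peaks of that quartile it was 30.7%. Upstream summits had a median of 31.2%, those in the gene body 38.6% and those at the downstream promoters 43.6%.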

How the data were processed

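The files were peak lists on dm6, per the labels. Each replicate had a ranked and a thresholded list made with a control per the deposited file lists, the other lists came from both replicates, and peaks were compared by IDR; aligner and peak caller were not given in the sources used here. The signal values are the authors', as deposited, with no scale stated. The deposited score restates the IDR, and the deposited −log10 values are q-values and the IDR. No counts or depths are given, so no intervals could be made. In the ranked lists of both replicates, 4 columns with a signal per replicate were not used; replicate signals came from the strongest overlapping peak of each replicate's own ranked list.

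Summits were taken as start plus offset, and positions count from 1. A shared base of 1 bp counted as overlap. Gene models were Ensembl 115 (annotation 6.54), and sequence was RefSeq release 6. Summits were classed as promoter (1000 bp) first, then by exon, intron or intergenic position. Counts were made with Python 3.11.15 and pandas 2.3.3, tested on simulated peaks. Named genes were those with a start site in the window, the 10 densest, the 3 next above and below chinmo, and from each list the 5 densest and every member without a summit. The members and lists were chosen with earlier results of these data known. Alternatives covered the peak list, replicates, window, signal, merging of near summits, overlap, promoter width, start sites and motif window.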

Additional observations from a re-analysis of the deposited data

How the results depend on the processing

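Over 11 results and 44 alternatives, 30 values were classed as the same, 14 as moved and 0 as reversed. Some counts classed as the same also changed, with 14 summits in the conservative list and 25 with 50 kb flanks. Overlaps with replicate 2 rose from 15 to 20 in its ranked list. Temporal genes with a body summit fell from 9 to 6 without replicate 2. The 20 summits became 5 in the gene body alone, 9 with 10 kb flanks and 10 among the stronger 50% of peaks, and 12 to 16 with 1 replicate left out. The ratio to the arm's density became 1.69 in the gene body, 2.22 with 10 kb flanks and 3.03 to 3.63 with 1 replicate left out. Against replicate 1's ranked list, 20 in place of 10 peaks overlapped. The median signal percentile of 57.2 became 69.3 in the conservative list and 66.5 to 77.9 with 1 replicate left out. Promoter summits became 10 with promoters of 2000 bp, and summits with a motif became 0 within 25 bp and 14 within 100 bp. Motif shares of the other 2L summits are given for 50 bp only, so these 2 counts have no background. The counts thus depend on the 30 kb limit, and the depth of each replicate is unknown. No paired analysis was possible because there was 1 group.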
